A study of Bubalus bubalis with 12 samples.

Results

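The S100 genes named S100A2, S100A4, S100A6, S100A8, S100A9, S100A10, S100A11, S100A12, S100A14 and S100A16 were looked up by gene symbol in the deposited expression table of the water buffalo (Bubalus bubalis) ruminal wall. Of these 10 names, 9 had a row in the table. No row carried the name S100A12, which was not analysed here. An abundant gene known only as LOC102397920 lies between S100A8 and S100A9, at 3718 to 15239 FPKM. Whether it belongs to the S100 family was not settled from the files used here, and it is left out of the sums, shares and order of levels given for the named genes. Transcripts of 8 of the 9 genes reached the threshold on reads that was used for the tests, and S100A6 did not.

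The libraries came from 12 adult Italian Mediterranean dairy buffaloes, 1 library of total RNA for each animal, taken from the rumen wall at slaughter. The 6 control animals ate a total mixed ration (TMR), a blend of forages and concentrates. The 6 treated animals ate TMR in which freshly cut green ryegrass made up about 30% of the diet. The labels name no genotype or drug, and both diets were balanced for nitrogen and energy. The share of forage was also larger in the green feed diet, so that green feed and forage share cannot be told apart. The question was whether S100 transcripts of the rumen lining differed between these diets, and how the family was composed in the first place.

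S100 proteins are small calcium-binding proteins of vertebrates. They usually pair up, change shape when calcium binds, and then attach to target proteins inside the cell. Some are also released and act outside it as danger signals or as metal-binding antimicrobial proteins. Several S100 genes are typical of stratified squamous epithelium, and the rumen is lined by a keratinizing epithelium of this kind, which absorbs short-chain fatty acids and faces a dense microbiota.

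The members sat close to each other in the genome. In the RefSeq gene order of the NDDB_SH_1 assembly, which is not the UOA_WB_1 build used by the authors, all 9 identifiers matched a gene on 1 chromosome. The order ran from S100A1, S100A13, S100A14 and S100A16 through S100A2, S100A3, S100A4, S100A5 and S100A6 to S100A8 and S100A9. S100A14 directly neighboured S100A16, and 1 protein-coding gene lay between S100A8 and S100A9. S100A11 and S100A10 came last and next to each other, with 25 protein-coding genes between S100A9 and S100A11.

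Libraries held between 10531541 and 12948372 counted fragments. Levels are given as FPKM, fragments scaled for gene length and for the sequencing depth of the animal, so that levels of different genes can be compared within an animal. The samples are labelled as wall, and all 6 basal epithelial markers with a row were above every one of the 8 smooth muscle markers, from ITGB4 at 18.6 FPKM or more to KRT5 at 451 to 2372 FPKM. The muscle markers reached at most 14.8 FPKM (TAGLN) and 8.78 FPKM (ACTA2). The suprabasal and cornified markers were divided. TGM1, TGM3 and IVL reached 158, 1017 and 698 FPKM, and EVPL and PPL 43.5 and 55.4 FPKM. The other 7 of 12 with a row lay at the level of the muscle markers, with at most 1.81 FPKM for KRT4, 5.48 for KRT10, 0.434 for KRT36, 13.2 for CNFN, 1.97 for SBSN, 13.6 for DSG1 and 3.92 for CDSN. In bulk tissue, fewer cells of a type and less RNA per cell cannot be told apart.

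S100 transcripts were a sizeable part of the RNA of this tissue. The 9 genes took up 0.319% to 0.913% of the counted fragments of an animal, and 0.926% to 2.52% of its summed FPKM. Their summed level was 9307 ± 3021 FPKM (SD, n = 6) in control and 8557 ± 3276 FPKM (SD, n = 6) in treated animals. The share of fragments did not differ beyond the spread between animals (two-sided exact permutation test, p = 0.682). The calgranulins S100A8 and S100A9 together made up 59.1% to 84.2% of this sum, and S100A2 gave most of the remainder. Control replicate 4 and treated replicate 6 had the highest sums, 14552 and 14561 FPKM, and treated replicate 3 had the lowest, 4859 FPKM.

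**Figure D1:**
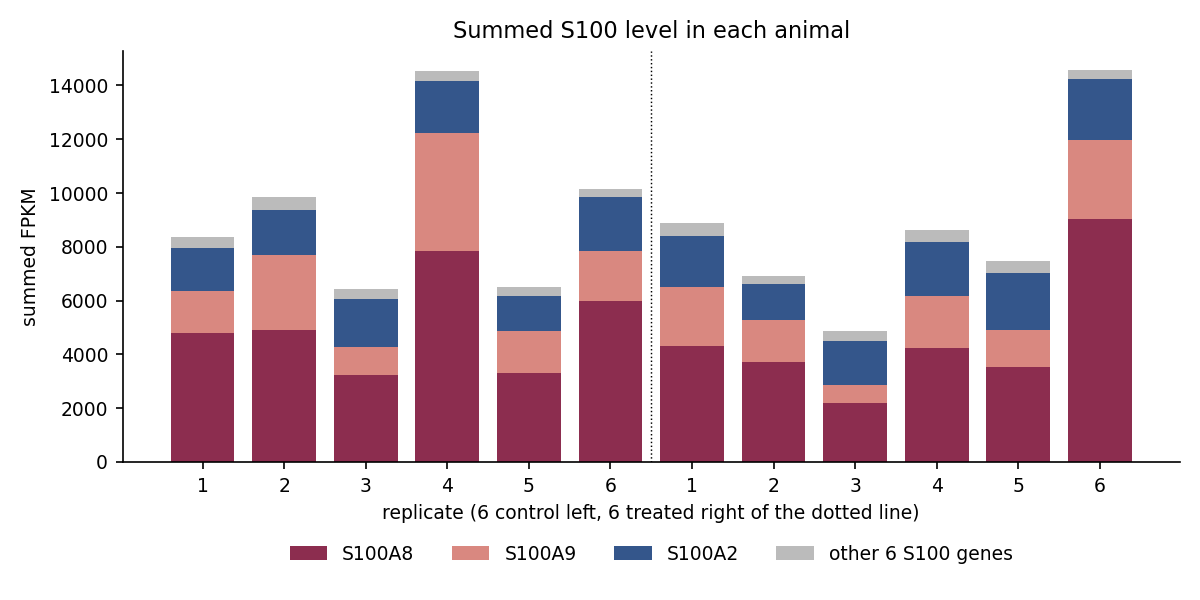
Summed FPKM (vertical axis) of the 9 S100 genes in each of the 12 animals (horizontal axis, replicate number within each diet), stacked as S100A8, S100A9, S100A2 and the other 6 genes. The sums ran from 4859 to 14561 FPKM, and the highest column of each diet was nearly as high as that of the other.

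The order of the members by level is given over all 12 animals. Neighbours in the order of mean log2 FPKM were compared by a two-sided exact sign-flip test of the 12 within-animal differences, adjusted over the 8 neighbouring pairs. S100A8 came first, with a geometric mean of 4424 FPKM, and exceeded S100A2 in 12 of 12 animals (2.49-fold, adjusted p = 0.000781). S100A2 and S100A9 followed at 1778 and 1777 FPKM. This pair could not be separated, since S100A2 was the higher one in 6 of 12 animals (adjusted p = 0.997).

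A wide step then led down to S100A10, which was 12.9-fold below S100A9 (adjusted p = 0.000781) at 138 FPKM. S100A4 followed at 105 FPKM, lower than S100A10 in 9 of 12 animals (1.31-fold, adjusted p = 0.0246). S100A14 was next at 69.8 FPKM, again lower in 9 of 12 animals (1.51-fold, adjusted p = 0.0143). S100A16 stood at 51.9 FPKM, lower than S100A14 in 12 of 12 animals (1.34-fold, adjusted p = 0.000781).

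S100A11 lay at 7.87 FPKM and was 6.59-fold below S100A16 in a comparison that held in 12 of 12 animals (adjusted p = 0.000781). S100A6 closed the order near the limit of detection. In a ranking of all genes within an animal, S100A8 held positions 5 to 25, S100A2 positions 24 to 67 and S100A9 positions 11 to 127. S100A11 was placed between 4422 and 8124.

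**Figure D2:**
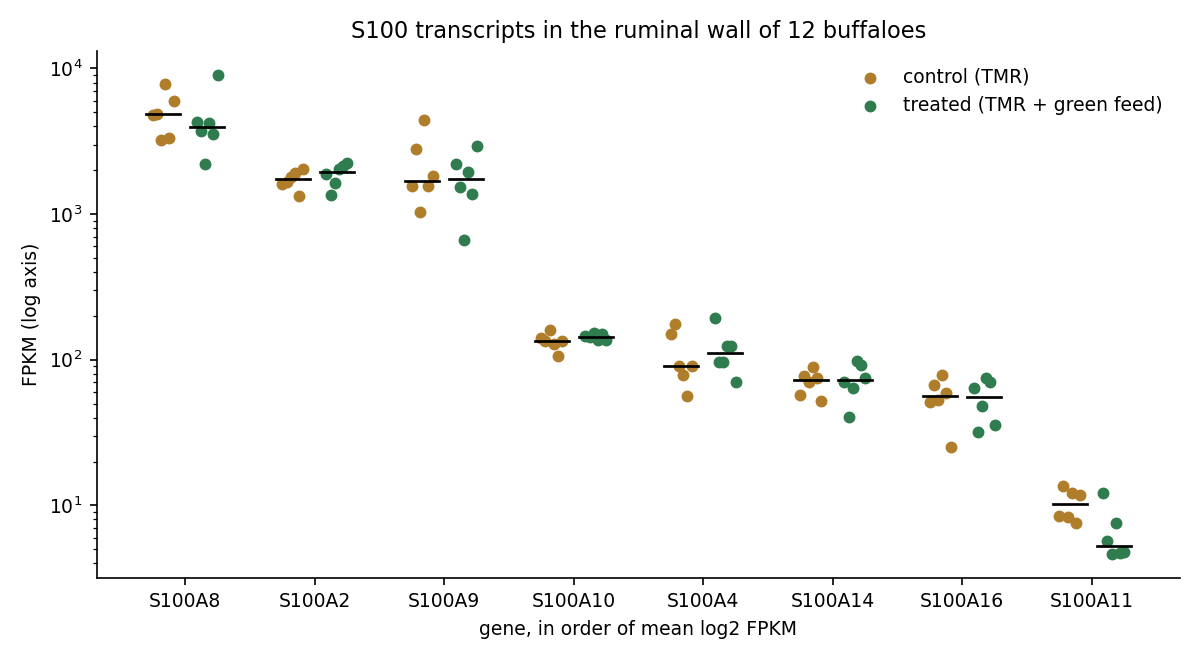
FPKM on a log axis (vertical) of the 8 S100 genes that were tested (horizontal, in order of level), with 1 point per animal, 6 control and 6 treated, and a black line at the median of each group. S100A8, S100A2 and S100A9 are the 3 highest genes, none below 665 FPKM in any animal, and S100A11 is the only gene shown for which 5 of 6 treated points lie below every control point.

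How much the members varied between animals of the same diet differed widely. As a measure of spread, the SD of log2 FPKM within a group was 0.36 for the median gene of all those tested. S100A10 was among the steadiest genes with 0.14, a value in the lowest 3.61% of genes, and S100A2 followed with 0.25. S100A14 stood near the median with 0.38 and S100A11 somewhat above it with 0.46. S100A4 and S100A16 had 0.55 each, and the calgranulins were the most variable members, with 0.58 for S100A8 and 0.74 for S100A9, the latter at percentile 88.8.

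The diets were compared with limma on log2(FPKM + 0.01), and folds are on that scale. In this comparison 157 of 12642 genes, 1.24%, passed the study's threshold, a nominal p-value below 0.05, with 100 higher and 57 lower in treated animals. After Benjamini-Hochberg adjustment over all genes tested, 0 genes (0%) were below 0.05. Among the 8 S100 genes tested, 1 had a nominal p-value below 0.05, S100A11, and it was lower in treated animals. No S100 gene had an adjusted p-value below 0.05. The log2 fold changes of the 8 genes had a median of -0.01, against 0.01 over all genes tested, with 4 above and 4 below 0.

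**Figure D3:**
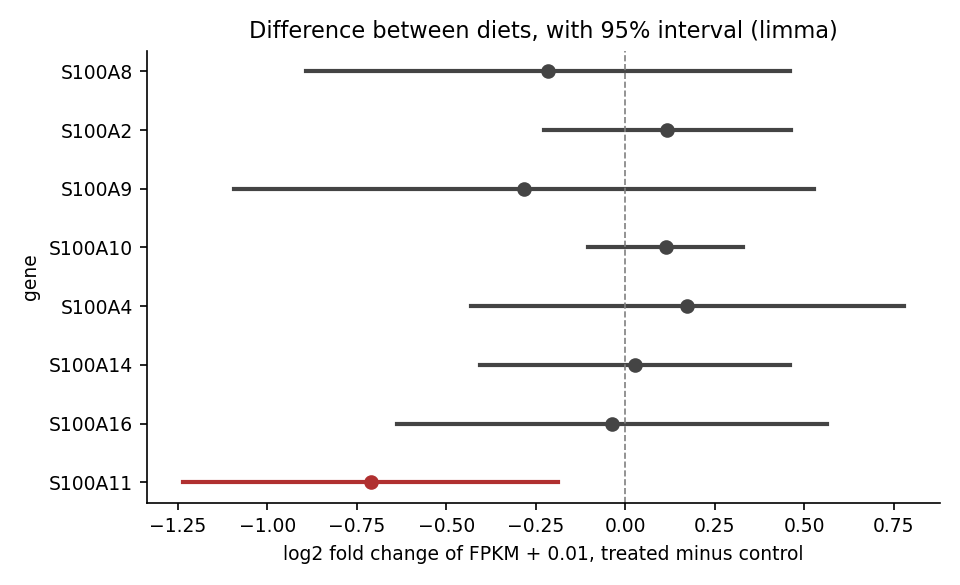
Log2 fold change of FPKM + 0.01, treated minus control (horizontal axis), of the 8 S100 genes (vertical axis), with points for the limma estimate and bars for its 95% interval, from 6 animals per diet. The interval of S100A11, in red, lies between -1.23 and -0.19, and the intervals of the other 7 genes include 0.

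S100A8 and S100A9 form the heterodimer calprotectin, which withholds zinc and manganese from microbes and signals through TLR4 and AGER when released. S100A8 (gene ID 102398240) ranged from 3223 to 7850 FPKM with a median of 4838 in control animals, and from 2205 to 9049 FPKM with a median of 3980 in treated animals. The groups overlapped, and the lowest and the highest animal of all 12 were both treated. The means were 5009 ± 1744 and 4509 ± 2350 FPKM (SD, n = 6 each), and the log2 fold change was -0.22 (SE 0.31, 95% interval -0.89 to 0.46). The difference was within the spread between animals (limma nominal p = 0.503, two-sided exact permutation p = 0.539).

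S100A9 (102397605) ranged from 1036 to 4399 FPKM with a median of 1695 in control animals, and from 665 to 2938 FPKM with a median of 1735 in treated animals. The medians of both groups were nearly equal, while control replicate 4, at 4399 FPKM, stood well above the other animals. The means were 2197 ± 1227 and 1774 ± 776 FPKM (SD, n = 6 each), and the log2 fold change was -0.28 (SE 0.38, 95% interval -1.09 to 0.53, exact permutation p = 0.517). With 6 animals per diet, the data were compatible with any difference inside this interval, in either direction.

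Within each animal, S100A8 was above S100A9. The log2 ratio of both genes was 1.28 ± 0.42 in control and 1.35 ± 0.29 in treated animals (SD, n = 6 each), about 2.43-fold and 2.55-fold, and it was positive in 12 of 12 animals. The ratio did not differ detectably between diets (two-sided exact permutation test, p = 0.760, adjusted p = 0.829 over the 3 ratios compared).

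Calgranulins are also the chief cytosolic proteins of neutrophils, so the markers of these cells were examined. Of 10 neutrophil markers, 7 had a row and 3 passed the filter. The summed level of these 3 markers was between 2.24 and 5.19 FPKM in control and between 1.65 and 4.63 FPKM in treated animals. The 3 markers that passed the filter were CXCR2 at 0.493 to 4.35 FPKM (18 to 162 reads), CSF3R at up to 1.11 FPKM and ITGAM at up to 1.13 FPKM. MPO and CD177, a granule and a surface protein of neutrophils, were listed at 0 in all 12 animals, and ELANE and LTF did not exceed 0.0841 and 0.0759 FPKM. The part of neutrophil RNA in the calgranulin levels was not tested. The deviations of S100A8 and of S100A9 from their group means correlated with the neutrophil score at r = 0.31 and r = 0.43 (rho = 0.20 for both, n = 12 animals, permutation p = 0.405 and 0.188). Without the 2 animals farthest from the median of the score, r was -0.02 and 0.06.

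S100A2 is a nuclear and cytoplasmic S100 protein typical of the basal layers of squamous epithelium and a target of TP63. S100A2 (102411514) ranged from 1331 to 2025 FPKM with a median of 1731 in control animals, and from 1346 to 2253 FPKM with a median of 1957 in treated animals. The 3 highest values were treated animals, and the lower parts of both ranges coincided. The means were 1722 ± 247 and 1879 ± 340 FPKM (SD, n = 6 each). The log2 fold change was 0.12 (SE 0.16, 95% interval -0.23 to 0.46), within the spread between animals (limma nominal p = 0.479, exact permutation p = 0.420).

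S100A14 and S100A16 are epithelial members of the family, the former lacking a working calcium site in its C-terminal part. S100A14 (102410420) ranged from 52.4 to 89.5 FPKM in control and from 40.5 to 97.8 FPKM in treated animals, with medians of 73.0 and 72.6. S100A16 (102410970) ranged from 25 to 78.3 FPKM in control and from 31.9 to 74.7 FPKM in treated animals, with medians of 56.3 and 55.9. Both groups covered nearly the same range for both genes. The log2 fold changes were 0.03 (SE 0.20, 95% interval -0.41 to 0.46) and -0.04 (SE 0.28, 95% interval -0.64 to 0.56), and their exact permutation p-values were 0.909 and 0.922.

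S100A10 and S100A11 act mainly as partners of annexins, proteins that link membranes to the actin skeleton. S100A10 does not respond to calcium and holds molecules of annexin A2 (ANXA2) together. S100A10 (102393139) ranged from 106 to 159 FPKM with a median of 134 in control animals, and from 136 to 152 FPKM with a median of 144 in treated animals. All 6 treated animals were above the control median, and all 6 lay inside the control range. The means were 134 ± 17.1 and 144 ± 6.76 FPKM (SD, n = 6 each), and the log2 fold change was 0.11 (SE 0.10, 95% interval -0.10 to 0.33, exact permutation p = 0.208). With its small spread, S100A10 had the narrowest interval of the 8 genes.

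ANXA2 itself was at 714 ± 67.3 FPKM in control and 795 ± 140 FPKM in treated animals (± SD, 6 animals each). The log2 ratio of S100A10 to ANXA2 was -2.42 ± 0.12 and -2.45 ± 0.31 (SD, n = 6 each), so that S100A10 stood at 0.187 and 0.183 of the annexin's level per length. The ratio did not differ detectably (exact permutation p = 0.829, adjusted p = 0.829).

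S100A4 promotes cell motility through non-muscle myosin (MYH9) and is found in fibroblasts and leukocytes as well as epithelium. S100A4 (102413403) ranged from 56.6 to 175 FPKM with a median of 90.3 in control animals, and from 70.3 to 194 FPKM with a median of 110 in treated animals. The groups overlapped almost fully. The log2 fold change was 0.17 (SE 0.28, 95% interval -0.43 to 0.78, exact permutation p = 0.60).

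S100A6, or calcyclin, binds annexins and the ubiquitin ligase adaptor CACYBP. S100A6 (102414367) was represented by 17 reads in all 6 control animals together and by 4 reads in all 6 treated animals. Single animals had 0 to 6 reads, which corresponds to at most 1.24 FPKM. In control animals the values were 0.392, 1.24, 0.380, 0, 0.603 and 0.935 FPKM, and in treated animals 0, 0.204, 0, 0.204, 0.416 and 0 FPKM. In all but 2 control animals the reads did not exceed 3, the number that a count of 0 still allows, and no fold is given. Whether all transcripts of this gene were annotated and counted was not tested, so its last place in the order holds for the counted reads alone. Its partner CACYBP was at 28.1 ± 4.31 and 26.5 ± 3.52 FPKM (SD, n = 6 each).

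S100A11 interacts with annexin A1 (ANXA1), takes part in membrane repair and in growth control of keratinocytes, and is crosslinked into the cornified envelope. S100A11 (102393457) had 8.50, 13.5, 8.38, 12.2, 7.54 and 11.8 FPKM in control replicates 1 to 6, and 12.1, 5.69, 4.65, 7.53, 4.71 and 4.76 FPKM in treated replicates 1 to 6. Of the 6 treated animals, 5 lay below every control animal, the closest pair being 7.53 and 7.54 FPKM. Treated replicate 1 lay inside the control range.

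The means of S100A11 were 10.3 ± 2.48 FPKM in control and 6.58 ± 2.94 FPKM in treated animals (± SD, 6 animals each). This was a 0.611-fold level, or a log2 fold change of -0.71 (SE 0.24, 95% interval -1.23 to -0.19). The nominal limma p-value was 0.0114 and the two-sided exact permutation p-value was 0.0238, while the Benjamini-Hochberg adjusted limma p-value over all genes was 0.9997. The values rested on 35 to 101 reads per animal, 469 in control and 299 in treated animals in total. The study had itself picked this gene as changed in these same samples with edgeR, so the direction is not independent evidence. The paper does not name S100A11 among the inflammation-related genes that its other method, NOISeq, also picked.

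The study also measured S100A11 by rt-qPCR. Its primer pair is shown because it marks the transcript that was amplified. The sequences run 5′ to 3′ and no part is set in capitals. The paper reports that rt-qPCR matched the RNA-seq pattern for every gene it assayed from its count model (edgeR), in the same samples. The rt-qPCR values were not analysed here.
S100A11_Fw: ccctacggagactgaacgatg
S100A11_Rv: tcatcatgcggtcaaggaca
The forward primer has 21 bases and a GC share of 57.1%, and the reverse primer has 20 bases and a GC share of 50%.

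**Figure D4:**
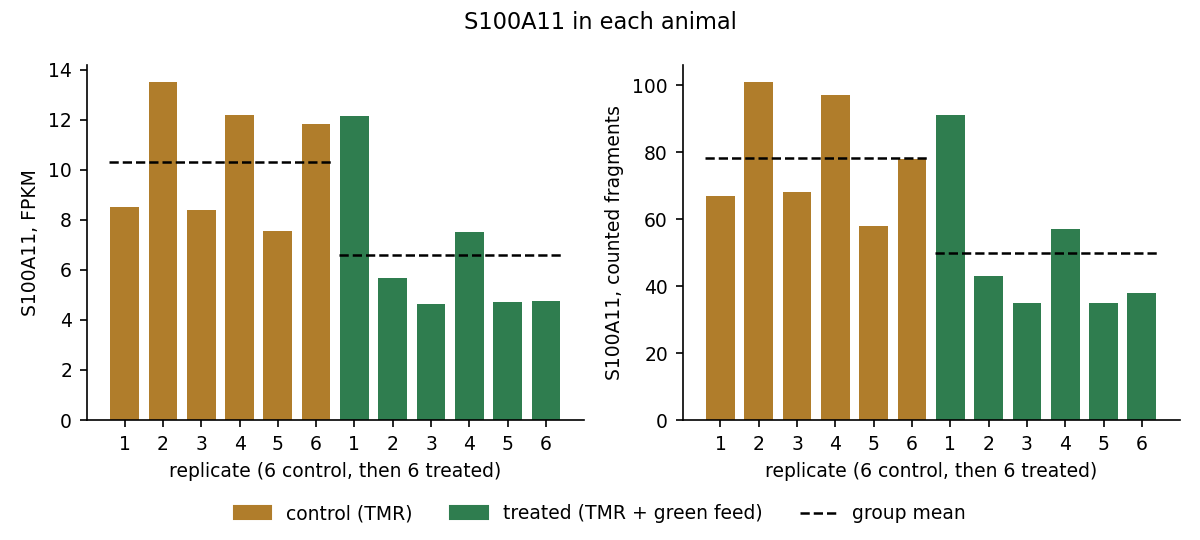
S100A11 in each of the 12 animals (horizontal axis, 6 control then 6 treated replicates) as FPKM (left) and as counted fragments (right), with dashed lines at the group means. Treated replicate 1, with 12.1 FPKM from 91 fragments, stands with the control animals, and the other 5 treated animals have 35 to 57 fragments.

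The nominal p-value of S100A11 stayed below 0.05 with each of the 12 animals left out in turn. Its log2 fold change ranged from -0.91 without treated replicate 1 to -0.63 without control replicate 2, with nominal limma p-values of 0.000454 and 0.0288. This animal, treated replicate 1, also stood out in its tissue markers. Its mean log2 level of the tested smooth muscle markers was -0.56 and that of the fibroblast markers 1.02, both the lowest of the 12 animals, and that of the suprabasal and cornified epithelium markers was 4.19, the highest.

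Markers of the deeper layers of the wall had lower estimates in treated animals. All 5 smooth muscle markers tested were lower in treated animals, with a median log2 fold change of -0.90, and 1 of them, DES, had a nominal p-value below 0.05. The summed level of the 5 tested markers was between 12.4 and 29.2 FPKM in control and between 4.22 and 21.9 FPKM in treated animals (score difference -0.90, exact permutation p = 0.0584). All 7 fibroblast markers were on the lower side too, with a median of -0.59 (score difference -0.63, exact permutation p = 0.318), and none had a nominal p-value below 0.05. Likewise, 0 of 6 basal and 0 of 11 suprabasal epithelial markers, 0 of 3 neutrophil, 0 of 5 macrophage and dendritic cell, 0 of 4 T cell and 0 of 5 endothelial markers passed this nominal threshold. Over all genes tested, 1.24% passed this threshold. With the mean of both lists as a covariate, the log2 fold change of S100A11 was -0.90, with a nominal limma p-value of 0.00307 and an adjusted one of 0.999.

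ANXA1, at 1222 ± 383 FPKM in control and 1182 ± 568 FPKM in treated animals (± SD, 6 animals each), was far more abundant than S100A11. The log2 ratio of S100A11 to ANXA1 was -6.87 ± 0.33 in control and -7.48 ± 0.78 in treated animals (SD, n = 6 each), a difference of -0.61. This was not past the threshold (exact permutation p = 0.0866, adjusted p = 0.260). The difference was -0.79 without treated replicate 1 (exact permutation p = 0.0130), and it was -0.32 without treated replicate 6 (exact permutation p = 0.162).

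The partners and receptors of S100 proteins were tabulated as a list of 18 genes, of which 17 were tested. None had a higher and 1 had a lower level in treated animals at a nominal p-value below 0.05, with a median log2 fold change of -0.04. Over all genes tested, 157 of 12642, or 1.24%, were below 0.05 in either direction. The gene that was lower was TGM2, a tissue transglutaminase, with means of 2.04 ± 0.461 FPKM in control and 1.19 ± 0.472 FPKM in treated animals (n = 6 each, ± SD) and a log2 fold change of -0.83 (SE 0.28, limma nominal p = 0.0102, exact permutation p = 0.0173). Its adjusted limma p-value was 0.9997. All 6 treated animals were below the control median, and 3 of them were below every control animal.

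Of the receptors of released S100 proteins, TLR4 was at 29.6 ± 9.31 FPKM in control and 28.1 ± 11.3 FPKM in treated animals (± SD, 6 animals each), and BSG at 881 ± 193 and 886 ± 212 FPKM. AGER, the receptor for advanced glycation end products, did not pass the filter, with at most 0.729 FPKM. The epithelial transglutaminases TGM1 and TGM3, which crosslink S100 proteins into the cornified envelope, had log2 fold changes of -0.01 and -0.36 (exact permutation p = 0.974 and 0.368).

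Other S100 genes were far less abundant than the leading members. Of 9 further names, 7 had a row and 2, S100A13 and S100B, were tested. S100A13 had means of 5.72 ± 1.82 and 4.24 ± 1.81 FPKM in the control and the treated group (± SD, 6 animals each), with a log2 fold change of -0.47 (exact permutation p = 0.171). S100B, a marker of glia, was at 7.69 ± 3.98 and 5.57 ± 2.33 FPKM (log2 fold change -0.49, exact permutation p = 0.271). S100A1, S100A3, S100A5, S100G and S100Z did not exceed 4.43 FPKM in any animal.

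The locus also holds S100-fused genes, whose large proteins begin with an S100 domain and bind keratin filaments. Of 7 names, only TCHH and TCHHL1 had a row. TCHH (trichohyalin) ranged from 2.57 to 12 FPKM with a median of 5.15 in control animals, and from 5.5 to 11.8 FPKM with a median of 9.32 in treated animals. All 6 treated animals were above the control median. The log2 fold change was 0.80 (SE 0.33, limma nominal p = 0.0286, adjusted p = 0.9997), while the exact permutation p-value was 0.0606.

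Members were next compared for moving together between animals of the same diet. The deviations of log2 FPKM from the group means were correlated for all 28 pairs of the 8 genes over 12 animals, with p-values from 100000 permutations of the animals within their group. Pearson's r ranged from -0.39 to 0.87 with a median of 0.21, and 22 pairs were positive. After adjustment over the 28 pairs, 2 were below 0.05 by both Pearson's r and Spearman's rho.

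The first pair was S100A8 and S100A9, the subunits of calprotectin, with r = 0.87 (permutation p = 0.00102, adjusted p = 0.0143) and rho = 0.87 (permutation p = 0.00087, adjusted p = 0.0143). The correlation was 0.83 among control and 0.92 among treated animals. Without the 2 animals farthest from the median of S100A8, treated replicates 6 and 3, r was 0.84 (permutation p = 0.0200), although its adjusted p-value over 28 pairs was 0.280.

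The second pair was S100A14 and S100A16, which are direct neighbours in the genome, with r = 0.80 (permutation p = 0.00091, adjusted p = 0.0143) and rho = 0.87 (permutation p = 0.00102, adjusted p = 0.0143). The correlation was 0.88 among control and 0.79 among treated animals. Without treated replicate 2 and control replicate 6, r was 0.69 (permutation p = 0.0483, adjusted p = 0.362). With 10 animals left, neither pair was below 0.05 after adjustment over the 28 pairs. S100A4 and S100A11 reached r = 0.62 (rho = 0.67, permutation p = 0.0365, adjusted p = 0.341), and r was 0.22 without treated replicate 1 and control replicate 2. S100A10 and S100A11, which are direct neighbours in the genome too, had r = 0.004 (permutation p = 0.991).

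**Figure D5:**
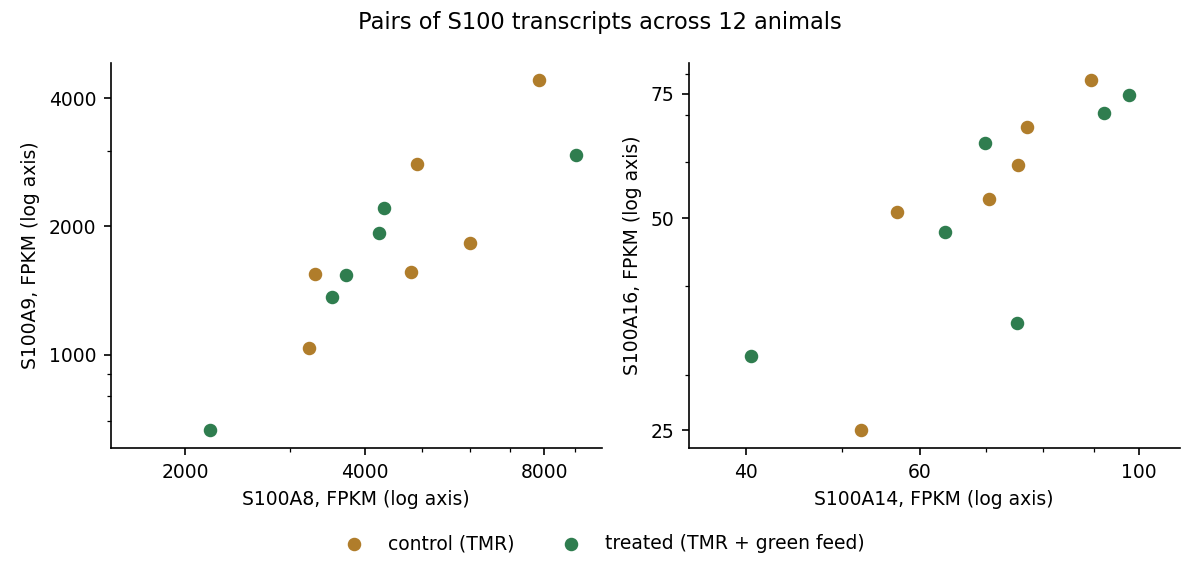
FPKM on log axes of S100A9 against S100A8 (left) and of S100A16 against S100A14 (right), with 1 point for each of 12 animals. S100A9 follows S100A8 from the treated animal at 2205 and 665 FPKM to the animals at 7850 and 9049 FPKM of S100A8, and S100A16 follows S100A14 with a lower correlation (r = 0.80 against 0.87).

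The same comparison of the 8 genes with the mean marker level of 8 tissue compartments gave 64 pairs. None had an adjusted p-value below 0.05, and 3 had a nominal permutation p-value below 0.05 for Pearson's r. S100A8 and S100A9 correlated with the T cell markers at r = 0.68 and 0.65 (rho = 0.73 and 0.57, permutation p = 0.0405 and 0.0385, adjusted p = 0.559 for both). S100A16 correlated with the basal epithelium markers at r = 0.59 (rho = 0.34, permutation p = 0.0451, adjusted p = 0.559). Without the 2 farthest animals these values were 0.37, 0.13 and -0.06, so that each rested on those animals. This was not so for 2 pairs with a nominal permutation p-value below 0.05 for rho alone. S100A4 had r = 0.59 with the basal epithelium markers (rho = 0.68, permutation p = 0.0236, adjusted p = 0.680), and r = 0.74 without those animals. S100A2 had r = 0.56 with the fibroblast markers (rho = 0.63, permutation p = 0.0454, adjusted p = 0.680), and then r = 0.58. With the basal epithelium markers, S100A2 had a negative r of -0.51 (permutation p = 0.117, adjusted p = 0.559, rho = -0.49). That r was -0.07 without treated replicate 6 and control replicate 6. S100A11 had r = 0.62 with the suprabasal and cornified markers (rho = 0.62, permutation p = 0.0704, adjusted p = 0.559), and r = 0.21 without treated replicates 1 and 5.

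The genes most like each member were listed as a description, by Pearson's r of log2 FPKM over the 12 animals among 11494 genes with a mean of at least 1 FPKM. These are the highest of many values, and no test was made. S100A11 was followed most closely by WARS, a tryptophan tRNA synthetase (r = 0.84), by BAZ1A, a chromatin remodelling subunit (r = 0.83), and by LOC112587187 (r = 0.81). The closest genes were SUPT4H1 to S100A8 (r = 0.93), NUCB2 to S100A9 (r = 0.90) and VPS36 to S100A2 (r = 0.92). INPP5A was closest to S100A16 (r = 0.94), SEC61B to S100A14 (r = 0.88), PABPC4 to S100A4 (r = 0.90) and EDF1 to S100A10 (r = 0.82). No gene was among the 3 closest of more than 1 member.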

How the data were processed

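Total RNA of frozen rumen wall from 6 control and 6 treated buffaloes was made into stranded libraries, 1 per animal. According to the submitters' processing notes and the paper's methods, the authors checked reads with FastQC 0.11.5, trimmed them with Trimmomatic 0.39, used STAR 2.5.2b for alignment against the UOA_WB_1 genome and obtained strand-aware gene counts from featureCounts 2.0.0. The authors deposited FPKM values; the tool and gene lengths behind them are not given in the sources used here. The table had 16 columns, of which 12 matched the sample labels and 4 were not used. Labels give no batch or date.

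FPKM within a gene were whole multiples of what 1 read is worth, to within 1e-05 of a read, so reads were worked out for all 22972 genes above 0. The 12642 genes that reached, in at least 1 animal, the read threshold stated by the authors for HTSFilter were tested. The study used a count model, and since the deposited unit is FPKM, limma 3.58.1 (R 4.3.3; lmFit and trended eBayes) on log2(FPKM + 0.01) took its place, with p-values adjusted by Benjamini-Hochberg across the genes tested. Single values were compared by a two-sided exact permutation test over 924 assignments of the animals, whose smallest p-value is 0.00216. Python 3.11.15 with scipy 1.17.1, numpy 2.4.6 and pandas 2.3.3 was used, and plots were drawn with matplotlib 3.10.9. Scripts were tested on simulated data.

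The members, gene lists and tests were chosen with earlier results of these data known. Named genes were all members, other S100 and S100-fused genes by level, partners with a nominal p-value below 0.05 and those needed beside a member, and the 3 genes most like each member. Alternatives were pseudocounts of 0.1 and 1, 2 other filters, 2 other scalings, robust eBayes, a replicate block, a stromal covariate, a rank-sum test, group mean FPKM, and each animal left out. Voom on the reads worked out was chosen after seeing the data.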

Additional observations from a re-analysis of the deposited data

How the results depend on the processing

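S100A11 was the 1 S100 gene with a nominal p-value below 0.05 in all 23 limma settings, with p-values between 0.000454 and 0.0288 and log2 fold changes between -0.91 and -0.63 with 1 animal left out; no setting gave an adjusted p-value below 0.05 for any gene. The number of genes of the whole table with a nominal p-value below 0.05, 157, was 562 for all genes above 0, 301 for genes with at least 0.1 FPKM in 6 animals, 374 with the stromal covariate, 144 with voom, and 142 to 325 with 1 animal left out, the highest without treated replicate 6. Estimates near 0 changed sign: with 1 animal left out, S100A14 ranged from -0.0681 to 0.19, S100A16 from -0.25 to 0.10, and the log2 ratio of S100A8 to S100A9 differed by -0.0297 to 0.15, and that of S100A10 to ANXA2 by -0.096 to 0.049. The log2 ratio of S100A11 to ANXA1 stayed lower, by -0.79 to -0.32. Other estimates kept their sign but changed in size: S100A8 ranged from -0.44 without treated replicate 6 to -0.04 without treated replicate 3, S100A9 from -0.47 without control replicate 3 to -0.03 without treated replicate 3, S100A4 from 0.01 without control replicate 5 to 0.34 without control replicate 2, S100A2 from 0.05 to 0.21 and S100A10 from 0.05 to 0.16. By group medians (exact rank-sum test), S100A9 was at 0.0284 (p = 0.699) and S100A14 at -0.00876 (p = 0.937). By mean FPKM instead of mean log2 FPKM, 2 genes, S100A2 and S100A9, changed places. Without the 2 farthest animals, 0 pairs of members were below 0.05 after adjustment. The cause of these shifts was not tested.

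With the replicate number as a replicate block, 322 genes had a nominal p-value below 0.05, S100A11 had 0.00982, and no call of a member changed. The replicate numbers are those of the sample descriptions. The sample titles number the animals otherwise, and no same-numbered pair shares a number in the titles. Same-numbered animals are different animals, and the labels give no batch. Deviations of same-numbered animals correlated at -0.01 to 0.42 (mean 0.21, against -0.04 for other numbers), and 4 of 6 numbers correlated best with their own. Whether same-numbered animals share more than a number was not tested. S100A6 had 0 to 6 reads in an animal and S100A11 35 to 101, which limits the precision of both.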

Other observations

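The protein-coding gene between S100A8 and S100A9 in the RefSeq order of NDDB_SH_1 has no name beyond its identifier, LOC102397920, in the files and the reference used here, and it was chosen for its values. It was among the most abundant transcripts of the ruminal wall, at positions 3 to 11 of all genes in an animal. It ranged from 4376 to 11511 FPKM with a median of 6723 in control animals, and from 3718 to 15239 FPKM with a median of 7272 in treated animals. It was above S100A8 in 11 of 12 animals and above S100A9 in 12 of 12. The means were 7289 ± 2854 and 7948 ± 3881 FPKM (SD, n = 6 each), and the log2 fold change was 0.09 (SE 0.33, limma nominal p = 0.794, exact permutation p = 0.805).

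Between animals of the same diet, LOC102397920 varied together with both calgranulins, in 2 pairs compared over 12 animals. LOC102397920 was chosen for its values, and the adjustment over 2 pairs does not account for that choice. With S100A8, r was 0.91 (permutation p = 0.00139, adjusted p = 0.00256) and rho 0.78 (permutation p = 0.00866, adjusted p = 0.00866), and r was 0.80 without treated replicates 6 and 3 (permutation p = 0.0419). With S100A9, r was 0.85 (permutation p = 0.00256, adjusted p = 0.00256) and rho 0.82 (permutation p = 0.00399, adjusted p = 0.00798), and r was 0.68 without control replicate 4 and treated replicate 3 (permutation p = 0.0497). In contrast to this gene, of the 4 protein-coding genes between S100A6 and S100A8, 3 were listed at 0 in all 12 animals and LOC102398566 did not exceed 0.872 FPKM. The 1 protein-coding gene between S100A16 and S100A2, LOC112585551, did not exceed 1.52 FPKM.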
